A study of Mus musculus with 4 samples.

Results

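The colony-stimulating factors are the secreted proteins that drive the growth, survival and maturation of macrophages and granulocytes. CSF1 and interleukin 34 both bind the receptor tyrosine kinase CSF1R, on which macrophages depend. GM-CSF binds an alpha subunit, encoded by Csf2ra, that signals through a shared beta subunit, and G-CSF binds the receptor encoded by Csf3r. Mice have a pair of closely related beta subunit genes: Csf2rb serves the receptors for GM-CSF, interleukin 3 and interleukin 5, and Csf2rb2 serves interleukin 3 alone.

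Transcripts of 7 of these genes were followed, chosen by symbol in the platform annotation: the ligand genes Csf1 and Il34 and the receptor genes Csf1r, Csf2ra, Csf2rb, Csf2rb2 and Csf3r. Each had 1 probe set, and they are 7 of the 22180 genes that the array names with 1 symbol. The cells were mouse bone marrow-derived macrophages, cultured for a week in medium with 15% L929 conditioned medium, which itself supplies CSF1 protein. They came from HilpdaΔMΦ animals (knockout) and from littermates with floxed, undeleted Hilpda (Hilpda flox/flox, wild type), all 8 to 12 weeks old. HILPDA is a lipid droplet protein that restrains triglyceride breakdown. Cells of both genotypes were given 600 µM palmitate and oleate on albumin, 1 part to 2, for 12 h or for 24 h, and the study asked how their transcript profiles compare. The labels do not name the promoter that drove the deletion, and fatty acid-free controls were not analysed here.

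There was 1 array for each of the 4 groups, hybridised with pooled RNA of 3 samples, so no group had replicates and no difference at 1 time or within 1 genotype was tested. Levels are log2 expression values, and a log2 difference of 0.58 is 1.5-fold, the size used for counts. Of the 22180 genes, 13308 averaged at least the 40th percentile (2.44) over the arrays and were kept as the background for counts. As a yardstick of noise at background, 1405 genes of olfactory, vomeronasal and trace amine receptors had genotype differences with an SD of 0.276 at 12 h and 0.30 at 24 h. Their median level was 1.77, so this yardstick may overstate or understate the noise of brighter genes, and it holds no error between replicates. The genes kept had SDs of 0.23 at 12 h and 0.31 at 24 h. Over time in wild type the SD was 0.29 for the receptor genes and 0.36 for the genes kept. Between the genotypes at 12 h, 91 of 8872 genes from the 60th percentile up passed 1.5-fold, against 386 of the 13308 kept. At 24 h these counts were 380 and 864. Hilpda itself read 5.93 (wild type) and 5.41 (knockout) at 12 h, then 5.47 and 5.27 at 24 h. Those differences of -0.51 and -0.20 are under 1.5-fold, and its probe set may lie outside the deleted part, so they are a limited check of the labels. The macrophage markers Cd68 (12.00 to 12.18), Ctss (12.41 to 12.47) and Adgre1 (11.28 to 11.82) were high on every array.

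Csf1 had the largest genotype difference of the 7 genes at both times. At 12 h the log2 level was 6.66 on the wild-type array and 5.92 on the knockout array, and at 24 h it was 7.44 and 6.49. Both knockout arrays lay below both wild-type arrays, and the knockout at 24 h had not reached the level of the wild type at 12 h. The knockout was thus lower by 1.67-fold at 12 h (log2 difference -0.74) and by 1.94-fold at 24 h (-0.96). Of the 13308 genes kept, 72 were as low or lower at 12 h and 63 at 24 h, and the central 95% of genes ran from -0.50 to 0.49 and from -0.66 to 0.62. Csf1 was the 1 member of 6 kept that lay past 1.5-fold at either time, on the lower side. Of all genes kept, 2.90% were past 1.5-fold in either direction at 12 h and 6.49% at 24 h, of which the lower side made up 1.40% and 3.51%. Genes lower by 1.5-fold at both times numbered 30, Csf1 among them, or 0.225% of those kept.

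The level of Csf1 was higher at 24 h than at 12 h in both genotypes. In wild type it was 1.72-fold higher (log2 difference 0.78) and in knockout 1.48-fold higher (0.56). The wild-type value passed 1.5-fold, which 4.71% of the genes kept did on the higher side and 8.72% in either direction. In knockout 0 of the 6 members kept passed it, against 6.31%. Ordered from low to high, the arrays were knockout 12 h, knockout 24 h, wild type 12 h and wild type 24 h. The middle step, from knockout 24 h to wild type 12 h, was 0.18, and the steps on either side were 0.56 and 0.78. Only the middle step was smaller than the spread of the background yardstick, which comes from dimmer genes. The genotype gap was wider at 24 h by 0.21 on the log2 scale, which is also within that spread, and with 1 array per group the widening was not tested.

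**Figure D1:**
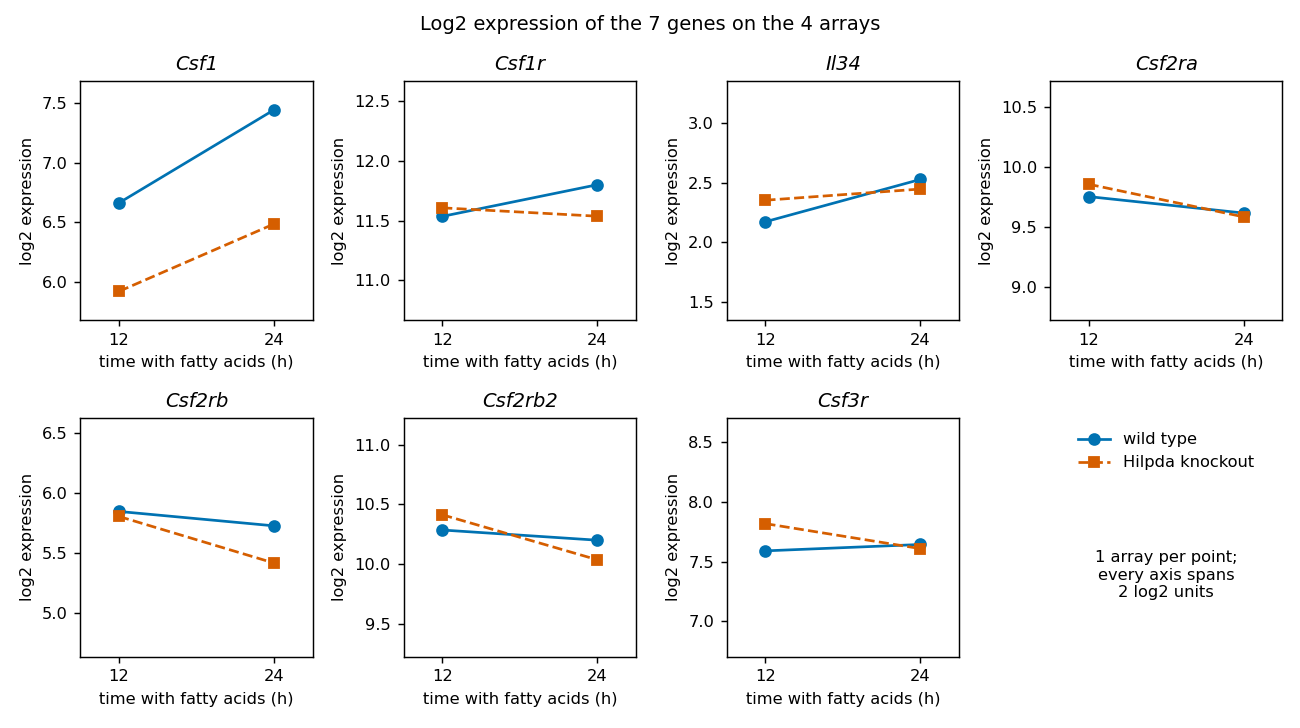
Log2 expression of each gene against time with fatty acids (12 h and 24 h), with wild type as circles and knockout as squares, 1 array per point, every axis spanning 2 log2 units. The lines of Csf1 lie apart at both times (6.66 and 5.92, then 7.44 and 6.49), while those of the other genes cross or lie close together.

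A limma model of genotype plus time, fitted over the 4 arrays and all 13308 genes, gave Csf1 a log2 difference of -0.85 ± 0.123 (SE). Its unadjusted p was 0.00177, the 8th lowest of all genes, and its p after Benjamini-Hochberg adjustment over all genes was 0.76 in this limma fit, so Csf1 did not pass 0.05. No gene did: limma called 0 of 13308 (0.00%) after adjustment, while 868 (6.52%) had an unadjusted p under 0.05. The fit had 1 residual degree of freedom. Its error joins how far a gene's 12 h and 24 h genotype differences lie apart with a variance shared over all genes, which carries 3.3 prior degrees of freedom, and holds no error between replicates. Over the alternative settings the adjusted p of Csf1 in limma ran from 0.318 to 1. The other members kept had mean genotype differences from -0.18 (Csf2rb) to 0.10 (Csf3r) in that fit, and their adjusted p in limma ran from 0.843 to 0.995.

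The 250 bases before the start of Csf1, from RefSeq on mouse GRCm38.p6 (chr3:107760470-107760719, minus strand), are shown because Csf1 is the member past 1.5-fold between the genotypes. The window is printed 5′ to 3′ up to the start site. Capitals mark the single match to the NF-kB consensus, a motif bound by a family of inflammatory transcription factors. The word searched was GGGRNNYYCC, where R is A or G, Y is C or T and N is any base. The capitals match this word on the opposite strand.
Csf1: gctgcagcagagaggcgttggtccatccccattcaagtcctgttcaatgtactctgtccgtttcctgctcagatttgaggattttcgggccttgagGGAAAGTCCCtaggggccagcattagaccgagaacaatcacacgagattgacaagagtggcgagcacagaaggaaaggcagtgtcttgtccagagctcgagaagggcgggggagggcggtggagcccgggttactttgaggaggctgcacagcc
The capitals begin 154 bases before the start, and 7.25% of 32851 such windows hold a match on either strand. A GC box (GGGCGG) occurs at 51 and again at 41 bases before the start, as it does at least once in 32.7% of windows. On either strand, no match was found in the window to the AP-1 word TGANTCA, the TATA box TATAAA or the PU.1 word GAGGAAGT. Csf3r, with a match to the NF-kB consensus at 129 bases, had small genotype differences. Of the 4 members with a window in the table, Csf2ra and Csf2rb2 held no match to that consensus. These matches describe the sequence and do not show binding.

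Il34, the other ligand of CSF1R, was at background. The wild-type and knockout arrays read 2.17 and 2.35 at 12 h, then 2.53 and 2.45 at 24 h on the log2 scale. Its mean of 2.37 was under the level filter and inside the central 95% of the background genes (1.35 to 2.95), so its differences of 0.18 and -0.08 are not read as a change. The ligand genes that are not among the 7 were also under the filter. Csf2, which encodes GM-CSF, lay between 2.09 and 2.30 on the 4 arrays, and Csf3, which encodes G-CSF, between 2.21 and 2.53. Csf1 was therefore the 1 ligand gene of these 4 with a level above the filter.

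Csf1r, the receptor for CSF1 and interleukin 34, varied little. Wild-type and knockout levels were 11.54 and 11.61 at 12 h, then 11.80 and 11.54 at 24 h. The wild-type 24 h array was the highest and the other 3 lay within 0.07 of each other. The genotype differences were 0.07 and -0.26, or 1.05-fold higher and 1.20-fold lower in knockout, and 2063 of the genes kept (15.5%) were as low or lower at 24 h. Of 12 macrophage markers, 7 had their highest value on that same array, among them Adgre1 (11.82, against 11.57 in knockout at 24 h), and 5 had their lowest there, among them Cd68 (12.00 against 12.18).

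The GM-CSF receptor alpha gene Csf2ra differed little between the genotypes. Wild-type and knockout levels were 9.75 and 9.86 at 12 h, then 9.62 and 9.58 at 24 h. Both 24 h arrays lay below both 12 h arrays, with time differences of -0.14 in wild type and -0.27 in knockout. All steps between neighbouring arrays were at most 0.14, inside the spread of the background yardstick, which comes from dimmer genes.

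The beta subunit genes were lowest in knockout at 24 h. For Csf2rb the wild-type and knockout levels were 5.85 and 5.80 at 12 h, then 5.73 and 5.42 at 24 h. The knockout 24 h array stood 0.31 below the next, and the other 3 lay close together. For Csf2rb2 they were 10.29 and 10.41, then 10.20 and 10.04. Their genotype differences at 24 h were -0.31 and -0.16, and their time differences in knockout were -0.39 and -0.38, against -0.12 and -0.09 in wild type. All of these were under 1.5-fold. The genes are neighbours in RefSeq with 0 protein-coding genes between them. Because they are closely related, their probe sets may share signal, so the values are not certain to be independent.

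Csf3r, the G-CSF receptor gene that is typical of granulocytes and also transcribed in monocytes, had its highest level in knockout at 12 h. Wild-type and knockout levels were 7.59 and 7.82 at 12 h, then 7.64 and 7.61 at 24 h. The differences of 0.23 and -0.03 lie within the SD of the background yardstick. Of 13 neutrophil and granulocyte precursor markers, 12 were under the level filter, among them S100a8, S100a9, Ly6g, Elane and Mpo. The linear signals of these 12 summed to 52.9 (wild type) and 54.8 (knockout) at 12 h, then to 54.6 and 53.1 at 24 h. With the marker kept, the sums were 75.7 and 88.0, then 65.0 and 66.2. That marker, the collagenase gene Mmp8, had genotype differences of 0.54 and 0.33. The part of such cells in the Csf3r values was not tested.

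**Figure D2:**
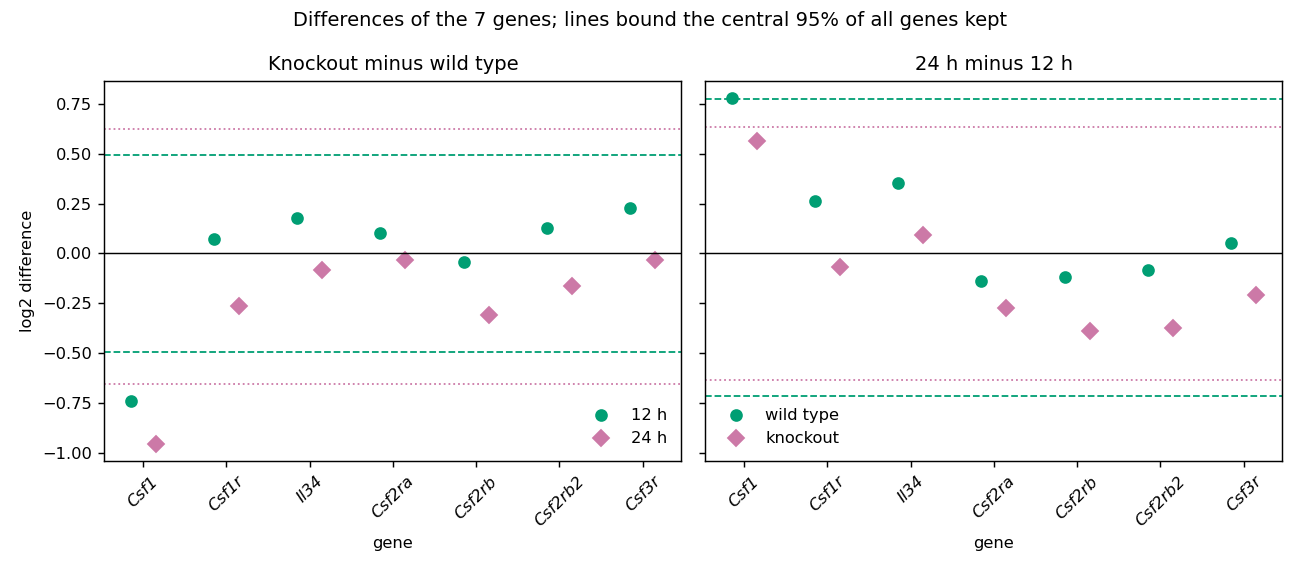
Log2 differences of the 7 genes: knockout minus wild type at 12 h and 24 h on the left, and 24 h minus 12 h in wild type and knockout on the right. Lines bound the central 95% of the 13308 genes kept; Csf1 lies below them at both times (-0.74 and -0.96), the other 6 genes lie inside, and Csf1 reaches the upper line in wild type over time (0.78).

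By count, the members kept were below 0 between the genotypes in 2 of 6 at 12 h and in 6 of 6 at 24 h, beside 49.4% and 49.0% of all genes kept. Their medians were 0.09 and -0.21, beside 0.00 and 0.01 for all genes. In all 6 members kept the genotype difference was lower at 24 h than at 12 h, by 0.14 (Csf2ra) to 0.33 (Csf1r). The same held for 50.1% of all genes kept. These shifts are small and all rest on the same 4 arrays. With time, 3 of the 6 were below 0 in wild type and 5 of 6 in knockout, Csf1 being the exception there, beside 50.8% and 49.5% of genes kept.

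The genes whose pattern over the 4 arrays was most like that of Csf1 were Scd1, Col1a1 and Col1a2. Likeness was the Euclidean distance of log2 values centred on each gene's mean, among 13307 genes, where the median distance was 1.12. Scd1, a stearoyl-CoA desaturase, was nearest at 0.0838, with levels of 5.15 and 4.47 at 12 h and 6.03 and 5.08 at 24 h in wild type and knockout. Col1a1, a chain of type I collagen, followed at 0.127, with 8.07 and 7.49 at 12 h and 8.87 and 8.00 at 24 h. Col1a2, its partner chain, was at 0.128, with 7.18 and 6.62, then 8.04 and 7.09. A dimmer probe set of Col1a2 gave smaller differences, -0.51 between the genotypes at both times and 0.43 over time in both genotypes. These genes were picked for likeness to Csf1, so shared directions follow from the choice. In each, the wild-type array was the higher at both times and 24 h the higher in both genotypes.

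Markers of stromal cells and fibroblasts, which produce CSF1 in many tissues and can persist in marrow cultures, mostly lay on the same side of 0 as Csf1. Of 16 such genes measured, 13 were kept, and all 13 were below 0 between the genotypes at both times, beside 49.4% and 49.0% of all genes kept. Their medians were -0.47 and -0.60 against 0.00 and 0.01 for all genes. Lower by 1.5-fold were 3 at 12 h and 7 at 24 h, beside 1.40% and 3.51% of all genes kept. Cd248 (-1.06 and -0.86), Pdgfra (-0.62 and -0.97) and Postn, which encodes periostin (-0.62 and -0.82), were so at both times. The signal of Cd248 was low (2.84 to 4.53), and its knockout 12 h value lay inside the central 95% of the background genes. The linear signals of the 16 summed to 1734 (wild type) and 1209 (knockout) at 12 h, then to 2875 and 1871 at 24 h, which is 1.43-fold and 1.54-fold higher in wild type. With time the sum was 1.66-fold higher in wild type and 1.55-fold higher in knockout. Lum, Thy1 and Fap, which also define such cells, were under the filter, and Pdgfrb (-0.15 and -0.07) and Dcn (-0.11 and -0.28) differed little. Of the 13 genes, 8 were among the nearest 1% of all genes to Csf1. The part of stromal cells in the Csf1 difference was not tested, and in bulk RNA fewer cells of a type and less RNA per cell cannot be told apart.

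**Figure D3:**
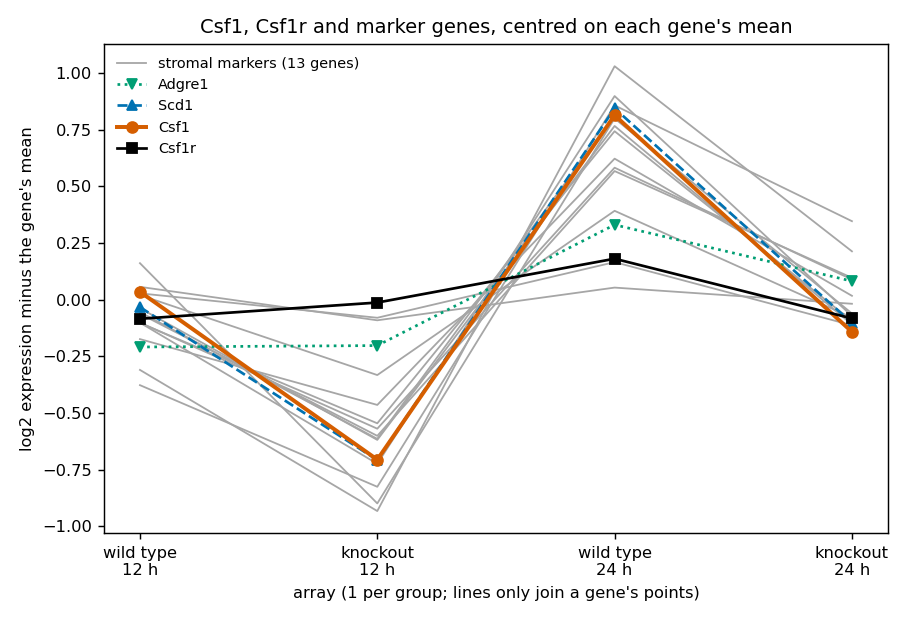
Log2 expression minus each gene's mean, on the 4 arrays, for Csf1, Csf1r, Scd1, the macrophage marker Adgre1 and 13 stromal markers in grey. Adgre1 is among the 7 of 12 macrophage markers that were highest in wild type at 24 h, while 5 were lowest there. Scd1, picked as the gene nearest to Csf1, runs together with Csf1. Most stromal markers follow the same zigzag, lowest in knockout at 12 h and highest in wild type at 24 h, while Csf1r spans 0.26 over all arrays.

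The macrophage markers lay nearer to 0. Of 12 genes, 3 were below 0 at 12 h and 7 at 24 h, beside 49.4% and 49.0% of all genes kept. Medians of the 12 were 0.02 and -0.19, and 1 was past 1.5-fold, Itgam at -0.72 at 24 h. Among all genes kept, 2.90% were past 1.5-fold at 12 h and 6.49% at 24 h. The summed signal of the 12 markers was 1.03-fold and 1.11-fold higher in wild type. The mannose receptor gene Mrc1 had the largest time differences of that list, 3.19 in wild type and 2.39 in knockout. Markers of other cells were mostly under the filter: 6 of 7 lymphocyte genes, 7 of 9 of mast cells, basophils and eosinophils, and 5 of 7 of endothelium. Pecam1, an adhesion molecule of endothelium and myeloid cells, was at 0.11 at 12 h and -0.61 at 24 h. Its signal was low (2.56 to 3.58) and highest on the wild-type 24 h array. Of 7 dendritic cell genes 4 were kept, with medians of 0.10 and -0.19. Of 8 osteoclast genes, which CSF1 helps induce, 7 were kept, with medians of 0.04 and 0.11 and 0 past 1.5-fold between the genotypes. Atp6v0d2, a proton pump subunit gene, was at 0.15 and 0.54, and Acp5, the tartrate-resistant phosphatase gene, at -0.38 and 0.48. Dcstamp, a cell fusion gene, was at 0.17 and -0.54, with a low signal (2.71 to 3.66) that was highest on the wild-type 24 h array. Mmp9 was at -0.18 at both times.

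Among genes that handle the ligands at the membrane, none of 6 was past 1.5-fold in any comparison. Of all genes kept, 2.90% to 8.72% were, depending on the comparison. Adam17, the protease that sheds CSF1 and its receptor from the cell surface, was at 0.02 and -0.06 between the genotypes. Timp3, an inhibitor of that protease, was at -0.37 and -0.34, and the related protease gene Adam10 was at -0.07 and -0.09 but at -0.52 and -0.54 with time. Of 10 measured genes for related cytokines and receptors 3 were kept. Kitl, which encodes stem cell factor, was at 0.47 and 0.45, and Il3ra, the alpha subunit that pairs with the beta subunits for interleukin 3, at 0.05 and 0.03.

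The adaptors and enzymes downstream of CSF1R were close to 0. Of 16 genes, 6 were below 0 at 12 h and 13 at 24 h, with medians of 0.03 and -0.12. Among all genes kept, 49.4% and 49.0% were below 0. Src, a tyrosine kinase gene with a low signal here (4.22 to 4.92), was the 1 of the 16 past 1.5-fold. It was at -0.70 at 12 h and at -0.42 at 24 h. Past 1.5-fold in either direction were 2.90% of all genes kept at 12 h and 6.49% at 24 h. Inpp5d, which encodes the phosphatase SHIP1, was at 0.01 and -0.40. Of 11 genes kept in the JAK-STAT and SOCS list, through which the GM-CSF and G-CSF receptors signal, 4 were below 0 at 12 h and 9 at 24 h, with medians of 0.05 and -0.19. Socs3, a feedback inhibitor, was at 3.34 and 3.20 at 12 h and at 4.23 and 3.37 at 24 h in wild type and knockout, a difference of -0.86 at 24 h that rests on the wild-type 24 h array; its dimmer probe set gave -0.03 and -0.35. Socs2 was at -0.59 and -0.31 by 1 probe set and at 0.28 and -0.30 by the other, both with levels near the filter, so its direction at 12 h is not settled. Stat5a, a main transducer of GM-CSF, was at 0.28 and -0.02, and Stat5b at 0.05 and 0.06.

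Transcription factors of the macrophage lineage, several of which bind the Csf1r gene, had medians of 0.02 and -0.11 over 11 genes. Of these, 0 were past 1.5-fold between the genotypes, beside 2.90% of all genes kept at 12 h and 6.49% at 24 h. Spi1, which encodes PU.1, was at 0.10 and 0.08, and Cebpa at 0.08 and -0.09. Maf was at 0.07 and -0.57 by its brighter probe set and at -0.30 and -1.03 by the other. With time Tfec, a relative of Mitf, was 1.22 higher in wild type and 1.12 in knockout, and Maf 1.11 and 0.47 higher.

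Genes known to respond to CSF1 had medians on opposite sides of 0 at 12 h and 24 h. Of 17 genes, 14 were below 0 at 12 h, with a median of -0.19 and 0 past 1.5-fold. At 24 h, 5 were below 0, with a median of 0.14 and 1 past 1.5-fold in each direction. Among all genes kept, 49.4% were below 0 at 12 h and 49.0% at 24 h. Past 1.5-fold in either direction were 2.90% and 6.49% of them. Ccnd2, which encodes cyclin D2, was lower at both times (-0.48 and -0.64), as was the chemokine gene Ccl2 (-0.49 and -0.37). The signal of Ccl2 was low (2.77 to 4.08), and its knockout 12 h value lay inside the central 95% of the background genes. The early response gene Egr2 was at -0.29 and 0.72, with levels of 5.32 and 5.03 at 12 h and 4.57 and 5.30 at 24 h, so the wild-type 24 h array stood low. Plau, the urokinase gene, had time differences of -1.37 in wild type and -1.04 in knockout. Many of these genes respond to other signals too. Of 8 genes kept that respond to GM-CSF, 3 were below 0 at 12 h and 2 at 24 h, with medians of 0.18 and 0.14; Pparg was at 0.22 and 0.49 and Bhlhe40 at -0.18 and 0.61, the 1 gene past 1.5-fold.

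**Figure D4:**
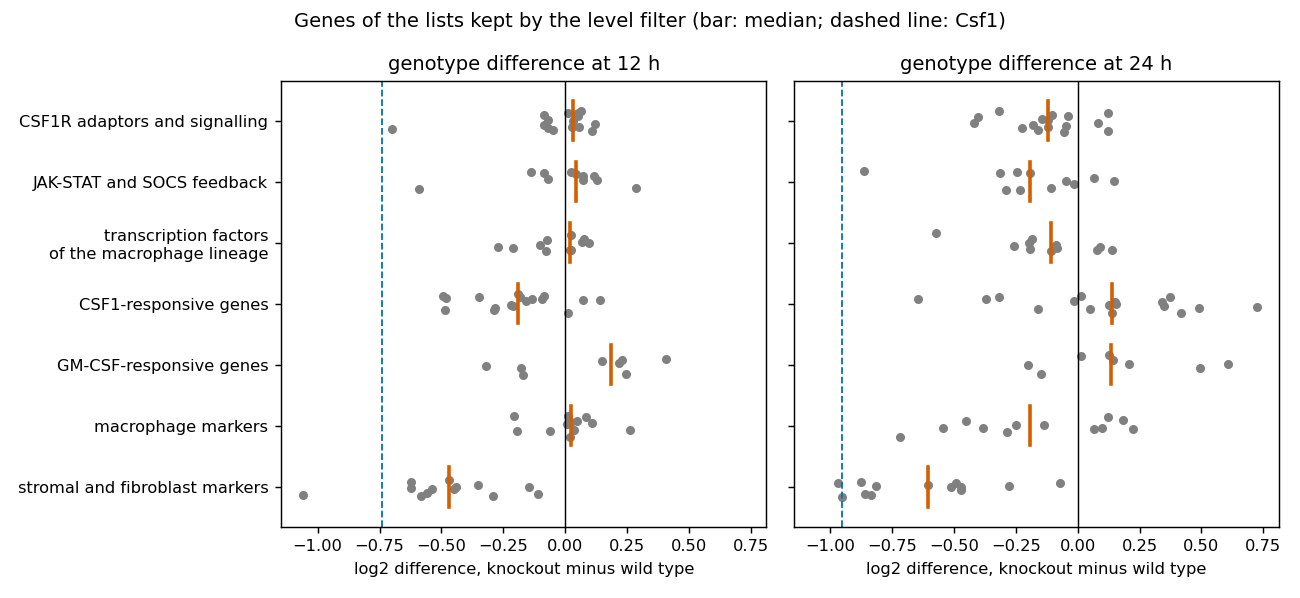
Genotype differences (log2, knockout minus wild type) at 12 h and 24 h for the genes kept in 7 lists, 1 point per gene, with bars at list medians and a dashed line at Csf1. The stromal list has medians of -0.47 and -0.60 on the side of Csf1, and the CSF1-responsive list is at -0.19 and then 0.14.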

How the data were processed

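Total RNA of 4 pools was labelled with biotin and hybridised to an Affymetrix whole-transcript array. The authors deposited log2 values per probe set made with RMA, per the submitters' processing notes; its version and annotation are not given in the sources used here. RMA equalises the arrays' distributions, so a shift common to all transcripts cannot be seen, and the number of arrays limits the precision. Of 41345 probe sets, 23521 had 1 symbol in the platform annotation and were used; 1814 with several symbols and 16010 with none were not. For a gene with several probe sets the one with the highest mean was taken. All value columns matched a sample. Differences were computed in Python 3.11.15, and genotype with time as an added term was fitted with limma 3.58.1 in R 4.3.3, tested first on simulated data. Named genes were the members, Hilpda, the 3 genes most like any member kept that ranged over 1.5-fold, and from each list those past 1.5-fold at both times or with extreme genotype or time differences; other list genes were chosen after their values were seen. Members and gene lists were chosen with earlier results of these data known. Each alternative is in the closing section.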

Additional observations from a re-analysis of the deposited data

How the results depend on the processing

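Without the level filter, with the filter at the 60th percentile (8872 genes), after quantile normalization, median centring or a loess on level, and with the mean over probe sets, the number of members past 1.5-fold stayed at 1 at 12 h, 1 at 24 h, 1 over time in wild type and 0 over time in knockout. At a fold rule of 2 it was 0 at 12 h, 0 at 24 h and 0 in wild type, and at 1.3 it was 2 over time in knockout. Under the scalings Csf1 ran from -0.74 to -0.73 at 12 h and from -0.99 to -0.96 at 24 h, and no member changed sign. Counts over all genes were 386 and 864 between the genotypes at 12 h and 24 h. Over time they were 1161 and 840 in wild type and knockout. In the same order they were 91, 380, 663 and 410 with the stricter filter. With no filter, over 22180 genes, they were 628, 1197, 1478 and 1128. At 1.3-fold they were 1317, 2278, 2715 and 2234, and at 2-fold 34, 103, 260 and 150. limma called 0 genes in every setting, with 438 to 1231 at an unadjusted p under 0.05. With 1 array per group there are no replicates to pair; the time term pairs the arrays by time, and without it the p of Csf1 in limma was 0.0511 unadjusted and 1 adjusted. Leaving out an array leaves no residual degrees of freedom with time in the fit.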
